A study of Mus musculus with 4 samples.

Results

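The cells described here are the keratinocytes of mouse epidermis with high keratin 8 (Krt8) RNA 1 week after deletion of ΔNp63. They were selected on measured values: a barcode (the tag of 1 droplet, taken as 1 cell) of the 1-week ablated library was kept when it held at least 2000 gene UMIs, at most 15% mitochondrial UMIs, at least 5 Krt8 UMIs and at least 10 Krt8 UMIs per 10,000, with no UMI of Ptprc (the pan-leukocyte antigen CD45), Krt20 or Atoh1 (markers of Merkel cells). A UMI, or unique molecular identifier, marks 1 captured RNA molecule. The limits selected 322 of 6255 passing barcodes, among 18413 barcodes in the library and 109216 in the series. The comparison cells, called Krt8-low keratinocytes, had at least 5 UMIs of Krt5 and Krt14 together, no Ptprc and fewer than 3 Krt8 UMIs per 10,000. There were 4024 of them in the same library and 8236 in the 1-week control library.

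The series holds 4 single-cell RNA-seq libraries of back epidermis from adult mice, a control and an ablated library at 1 day and at 1 week after ablation. All animals were homozygous for the floxed allele (DNp63fl/fl) and received 200 mg/kg tamoxifen by gavage on each of 5 days. Only the ablated animals carried K14-CreT2, a tamoxifen-dependent Cre recombinase driven by the keratin 14 promoter of basal keratinocytes, so Cre and the deletion cannot be told apart in these groups. Male and female mice aged between 2 and 17 months were used. The epidermis was taken off after 0.25% trypsin, overnight in the cold or for a shorter time when warm. The labels do not give the age, sex, digestion or number of animals behind each library. Each group is 1 library, so no difference has a replicate check, no test was possible, and every interval covers counting error only.

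Keratin 8 pairs with keratin 18 to form the intermediate filaments of simple epithelia such as gut, liver and lung lining, and both are made in the embryonic surface ectoderm before p63 brings in keratins 5 and 14. In adult skin the pair is normally limited to Merkel cells and to the secretory cells of sweat glands. ΔNp63 is the p63 isoform that lacks the long transactivation domain and that maintains basal keratinocytes of stratified epithelia.

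Krt8 (ENSMUSG00000049382, chromosome 15 from 101996698 to 102004482, minus strand) and Krt18 (ENSMUSG00000023043, chromosome 15 from 102028180 to 102032027, plus strand) are neighbours in mouse build GRCm38. Their promoter windows are shown because both genes were high in the same cells, and that of Cldn4, a claudin of tight junctions, because it was among the junction genes that were higher in them. The windows run from 250 bases before to 50 bases after the RefSeq start (GRCm38.p6), read 5′ to 3′ along the gene, at chr15:102004293-102004592 (minus strand), chr15:102027966-102028265 (plus strand) and chr5:134946885-134947184 (minus strand). Capitals mark TATAAA in Krt8, where matches on both strands overlap, and TGANTCA, the AP-1 motif, in Cldn4.
Krt8: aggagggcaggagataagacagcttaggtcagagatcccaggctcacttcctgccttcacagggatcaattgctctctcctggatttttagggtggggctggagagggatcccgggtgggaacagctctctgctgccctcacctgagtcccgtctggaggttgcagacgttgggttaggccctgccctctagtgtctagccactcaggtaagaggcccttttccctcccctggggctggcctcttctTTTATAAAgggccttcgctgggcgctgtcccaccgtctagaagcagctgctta
Krt18: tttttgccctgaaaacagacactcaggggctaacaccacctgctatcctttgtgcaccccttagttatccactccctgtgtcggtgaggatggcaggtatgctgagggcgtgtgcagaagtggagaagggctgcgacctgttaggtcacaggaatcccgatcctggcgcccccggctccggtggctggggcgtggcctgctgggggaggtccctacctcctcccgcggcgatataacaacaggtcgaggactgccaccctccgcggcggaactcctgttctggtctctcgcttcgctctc
Cldn4: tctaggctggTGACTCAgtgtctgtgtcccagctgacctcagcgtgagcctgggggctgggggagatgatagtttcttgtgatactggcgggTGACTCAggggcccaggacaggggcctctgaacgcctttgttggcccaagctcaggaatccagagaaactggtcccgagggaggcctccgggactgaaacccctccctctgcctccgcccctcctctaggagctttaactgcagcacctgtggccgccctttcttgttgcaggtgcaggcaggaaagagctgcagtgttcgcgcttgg

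The motifs searched, on both strands, were TGANTCA, AACCNGTT (the motif of grainyhead-like factors) and TATAAA. Of all 32851 promoter windows of this length in the RefSeq table, 7.81% held TGANTCA, 2.09% AACCNGTT and 13.6% TATAAA. The Krt8 window held TATAAA alone, the Krt18 window none of these letters, and the Cldn4 window TGANTCA at 2 places. Windows were found for 9 of the 15 genes with the highest ratio over Krt8-low cells and for 12 of the 15 with the lowest. TGANTCA was in 1 of the former and 3 of the latter, TATAAA in 3 and 7, and AACCNGTT in neither. A gene with several windows counted if any of them held the motif, while the shares over all windows are per window.

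Krt8-high cells made up 5.15% of the passing barcodes of the 1-week ablated library (exact binomial interval 4.61% to 5.72%). In the 1-week control library 0 of 10092 barcodes met the same limits, which allows a share of up to 0.0297% at 3 counts of the total and 0.0365% by the upper limit of the exact binomial interval. The cells carried the keratinocyte keratins as well: 320 of the 322 held at least 5 UMIs of Krt5 and Krt14, and these 320 were 6.08% of the 5262 keratinocytes. Another 918 ablated keratinocytes lay between the Krt8-low and the Krt8-high limits. Their median depth was 2660 UMIs, at which a lone Krt8 UMI can place a cell there. The part of free RNA in this number was not tested. Krt8 was set by the rule, and Krt5 and Krt14 defined the comparison cells, so these do not check the label. Krt18, which the rule did not use, was found in 239 of 322 cells (74.2%).

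The Krt8 level across the members ran from 10.0 to 114 UMIs per 10,000, with a median of 23.7. Krt18 ran from 0 to 39 per 10,000, with a median of 2.73. A member held between 5 and 286 Krt8 UMIs, with a median of 31. Cells just inside the limit, at 10 to 12 per 10,000, numbered 33 and had 109 CPM of Krt18 and 71.2 CPM of Cldn7 when summed (CPM, counts per 1000000 gene UMIs). Keratinocytes just outside, at 8 to 10 per 10,000, numbered 142, with 73.6 CPM of Krt18 and 43.9 CPM of Cldn7. Tslp went the other way, with 121 CPM inside and 286 CPM outside, and the median depth was 13494 UMIs inside and 2426.5 outside. Another 63 keratinocytes reached 10 per 10,000 with under 5 Krt8 UMIs, so the limit on UMIs kept shallow cells out. Members had a median of 12486.5 UMIs, against 4243.5 in Krt8-low cells of the library and 5615.5 in control keratinocytes.

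**Figure D1:**
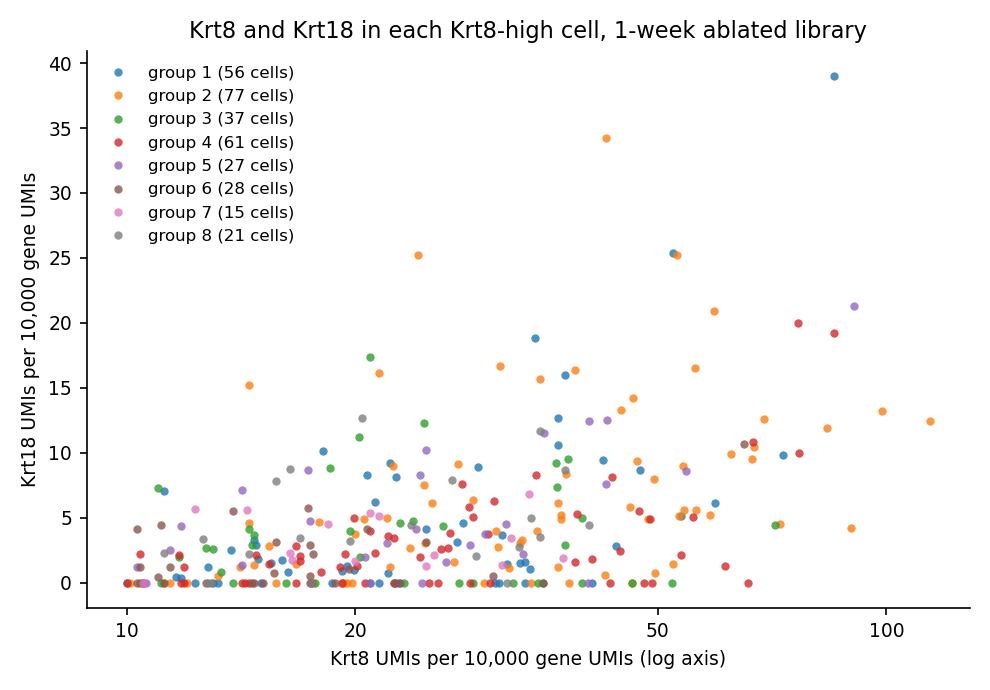
Krt8 (x axis, UMIs per 10,000 gene UMIs, log axis) and Krt18 (y axis, UMIs per 10,000 gene UMIs) in each of the 322 Krt8-high cells, coloured by the 8 groups described in the text. Krt18 reached 39 per 10,000 and lay at 0 in the 83 cells without a Krt18 UMI, which are found across most of the Krt8 range.

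As a guide to free RNA in the droplets, 121 immune barcodes of the library were read, whose median depth was 5922 UMIs. Krt8 stood at 117 CPM in them, against 2766 CPM in the members, 21.1 CPM in Krt8-low cells and 0.497 CPM in control keratinocytes. Krt18 stood at 15.3, 438, 16.0 and 0.284 CPM in the same order, so the Krt18 level of Krt8-low cells was at that of the immune barcodes. With every cell thinned to 2000 UMIs, a Krt18 UMI was found in 44.4% of members (38.9% to 50.0%), 3.31% of Krt8-low cells, 0.0729% of control keratinocytes and 1.65% of immune barcodes. Before thinning the share was 74.2% of members, 6.83% of Krt8-low cells and 0.158% of control keratinocytes. Of the members, 7 (2.17%) had a barcode that also occurs in the 1-week control library, as did 661 barcodes (3.59%) of the whole ablated library.

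Of the 12 Merkel cell markers listed, 9 were at 0 UMIs in the 4774240 UMIs of the members, and the list summed to 2.51 CPM. Among them, Krt20 and Atoh1 are at 0 by the rule. Chga, Syp and Snap25, genes of neurosecretion, and Isl1 were at 0 without being used by it. The list summed to 10.6 CPM in Krt8-low cells and 14.8 CPM in control keratinocytes. Immune, fibroblast and melanocyte markers were lower in the members than in Krt8-low cells: immune markers summed to 63.7 CPM against 382 CPM in Krt8-low cells, fibroblast markers to 40.8 against 170 CPM, and melanocyte markers to 10.1 against 48.4 CPM. Markers of Schwann cells and glia summed to 64.9 CPM in members, 53.9 CPM in Krt8-low cells and 61.7 CPM in control. The list for sweat gland luminal cells summed to 1371, 838 and 1465 CPM in the same order, of which the keratin Krt77 alone gave 1303, 770 and 1401 CPM. In members Foxi1 and Cftr of that list were at 0, and Aqp5 was at 0.209 CPM. The part of these markers in the results was not tested. Krt19, another keratin of simple epithelia, was at 0 UMIs, and Krt7, a keratin of ducts, stood at 4.40 CPM against 4.28 CPM.

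The targeted gene was lower in the members than in either comparison group. Trp63 (ENSMUSG00000022510, chromosome 16 from 25683763 to 25892102, plus strand) stood at 57.6 CPM in the members, 179 CPM in Krt8-low cells, 489 CPM in control keratinocytes and 116 CPM in immune barcodes. The log2 ratio was -1.64 over Krt8-low cells (-1.82 to -1.46) and -3.09 over control. UMIs were counted over the whole gene, so ΔNp63 and the longer isoforms are not told apart. Thinned to 2000 UMIs, 9.94% of members held a Trp63 UMI, against 28.7% of Krt8-low cells, 56.6% of control keratinocytes and 9.09% of immune barcodes. The share in members was near that of immune barcodes, but the summed level in those barcodes was above that of members. They are only a guide to free RNA, and matching shares do not show that members lack the transcript. The part of free RNA in the Trp63 of members was not tested.

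Expression was compared by summing UMIs over cells. Genes with a mean of at least 10 CPM over both groups were taken, without the genes the rule used. Mitochondrial and ribosomal protein genes were counted, and were left out only where the highest and lowest genes were picked. Against Krt8-low cells of the library, 299 of 8009 genes were at least 2-fold higher (3.73%) and 549 at least 2-fold lower (6.85%). Without the filter on low genes, beyond a sum of 20 UMIs, these were 542 and 2364 of 13470. Of the genes 2-fold apart 35.3% were higher, against 18.7% without the filter and 46.3% with TMM factors, which rescale the library totals. Against control keratinocytes, 610 of 7896 were higher (7.73%) and 598 lower (7.57%), or 1167 and 2364 of 14092 without the filter. Krt8-low ablated cells against control gave 451 of 8103 higher (5.57%) and 216 lower (2.67%). The comparisons with control share the control cells. The members were chosen on Krt8 in these same libraries, so these counts and those of the gene lists below are a description, with no test, and nothing is read from their size. The median log2 ratio over all genes was -0.045 against Krt8-low cells and 0.030 against control.

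Cldn7 was among the genes with the largest ratios, while the other genes of tight junctions had smaller ones. Cldn7, a claudin of simple and glandular epithelia, was at 102 CPM in members, 3.18 CPM in Krt8-low cells, 0.639 CPM in control keratinocytes and 4.07 CPM in immune barcodes. Its log2 ratio over Krt8-low cells was 5.00 (4.68 to 5.32). Cldn7 was spread over the members: 140 of 322 held a UMI, and the 10 cells with the most held 22.1% of its UMIs. Cldn4 was at 3118, 1072, 337 and 551 CPM in the same order of groups, a log2 ratio of 1.54, and 310 members held it. This ratio was 0.91 within cells of at least 20 Krt10 UMIs per 10,000, 0.57 within cells of at least 10 Krt79 UMIs per 10,000 and 2.41 in cells with neither. The junction list had 15 measured genes, of which 6 were at least 2-fold higher, none was 2-fold lower, and the median log2 ratio was 0.63. Besides the claudins these included Tjp3 (1.20) and Cgn (1.17), which code for plaque proteins under tight junctions, and Marveld3 (1.04), a membrane protein of the same junctions. Cldn1, the main claudin of the epidermal barrier, had a log2 ratio of -0.02, and E-cadherin (Cdh1) of 0.63.

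Summed over all members, other keratins divided in a way that did not follow 1 epidermal layer. Krt4, a keratin of moist stratified epithelia such as the oesophagus, was at 139 CPM against 3.78 CPM in Krt8-low cells, the highest ratio among genes with a mean of at least 50 CPM (log2 5.20, 4.92 to 5.50). It was not a property of most members: 39 of 322 held a UMI, 10 cells held 91.3% of its UMIs, and without these 10 it stood at 12.7 CPM. Krt78 (log2 1.80) and Krt80 (1.20), keratins of differentiating layers, were higher. The members are divided further on into 8 groups, which differed in these keratins. Krt78 ran from 12.3 CPM in group 5 to 601 CPM in group 4, against 55.9 CPM in Krt8-low cells. It was below Krt8-low cells in groups 1, 5 and 7. Of 3 measured genes in the list of simple epithelial keratins, Krt18 and Krt80 were at least 2-fold higher, and Krt23 was 2-fold lower, at 11.7 CPM against 59.0 CPM. Krt1 (-2.46), the partner of Krt10 in suprabasal cells, Krt79 (-2.73), a keratin of the upper hair follicle, Krt15 (-1.18), a keratin of basal and bulge cells, and Krt24 (-3.28) were lower. Krt14, part of the limits for Krt8-low cells, was at 13027 CPM in members and 9559 CPM in Krt8-low cells, and Krt10 at 1717 and 1399 CPM. By group, Krt10 ran from 43.0 CPM in group 7 to 5767 CPM in group 4. Krt1, Krt79 and Krt15 were each above Krt8-low cells in 1 group. Krt1 was at 2259 CPM in group 6, Krt79 at 4482 CPM in group 3 and Krt15 at 6074 CPM in group 8.

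Of the 4 listed keratins of wounded epidermis, none was at least 2-fold higher than in Krt8-low cells and 1, Krt6b, was 2-fold lower, with a median log2 ratio of -0.24. Krt6a stood at 1992 CPM in members, 2617 CPM in Krt8-low cells and 133 CPM in control keratinocytes. Krt16 stood at 4128, 2880 and 685 CPM, and Krt17 at 7031, 7468 and 1754 CPM. All 4 listed wound keratins were at least 2-fold higher in members than in control, with a median log2 ratio of 3.25, and Krt8-low cells had 4 of 4 higher with a median of 3.19. Krt6b was at 437 CPM in members and 1691 CPM in Krt8-low cells, against 0.213 CPM in control. Within cells rich in Krt10, at 20 or more per 10,000, the log2 ratio to Krt8-low cells was -2.59 for Krt6a and -4.65 for Krt6b. It was -0.88 and -1.49 within cells of at least 10 Krt79 UMIs per 10,000, and 0.07 and -1.38 in cells with neither. Krt6a and Krt6b are near-identical, so reads can be split between them.

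**Figure D2:**
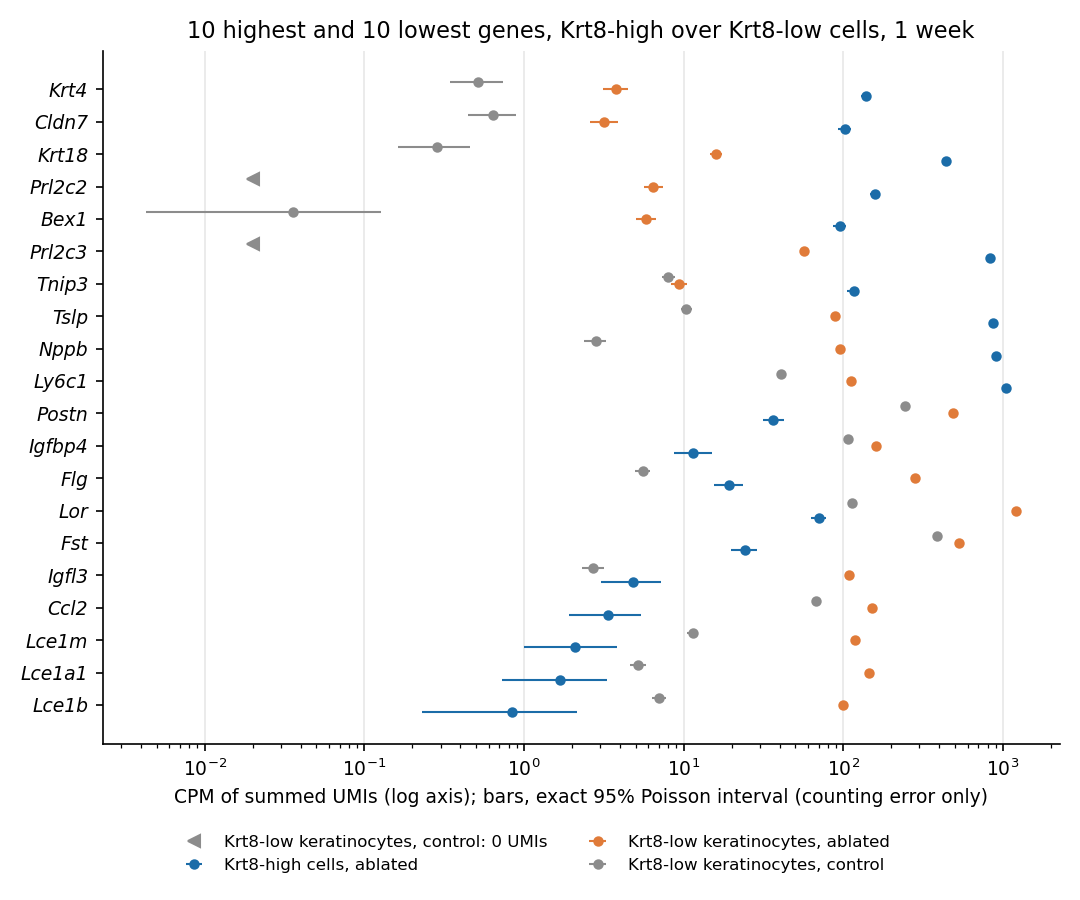
CPM (x axis, log axis) of the 10 genes with the highest and the 10 with the lowest ratio of Krt8-high over Krt8-low cells (mean of at least 50 CPM), in Krt8-high cells, Krt8-low cells of the same library and control keratinocytes. Points are sums over cells with exact 95% Poisson intervals for counting error, and triangles mark 0 UMIs. The 10 highest, from Krt4 to Ly6c1, lie above both comparison groups in the Krt8-high cells, while Lor, Flg and Postn lie highest in the Krt8-low ablated cells.

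Tslp and Nppb were among the 15 highest genes. Tslp, the epithelial cytokine that starts type 2 inflammation, was at 861 CPM in members, 88.9 CPM in Krt8-low cells, 10.4 CPM in control keratinocytes and 8.14 CPM in immune barcodes. The log2 ratio was 3.28 over Krt8-low cells and 6.37 over control. Against Krt8-low cells it was 1.54 within the cells rich in Krt10, 2.46 within those rich in Krt79 and 3.29 in cells with neither. A Tslp UMI was found in 135 members, and 10 cells held 58.1% of its UMIs; without these the level was 386 CPM. Nppb, the precursor of the natriuretic peptide BNP, was at 906, 95.2, 2.81 and 6.10 CPM in the same order, and 163 members held it.

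Wnt7b and Wnt3, ligands of the Wnt pathway, were at 106 and 199 CPM in members, at 17.3 and 37.3 CPM in Krt8-low cells and at 38.5 and 82.0 CPM in control keratinocytes. Summed over all members both were above control, and in Krt8-low cells below it. Of the 8 groups into which the members are divided further on, group 3 had Wnt3 at 57.6 CPM and Wnt7b at 38.4 CPM, and group 6 had Wnt7b at 26.8 CPM. Wnt3 was carried by 246 members and Wnt7b by 194, with 13.2% and 16.1% of UMIs in the 10 highest cells. Of 14 measured genes of the Wnt list, 3 were at least 2-fold higher and 4 lower, with a median of -0.40. The third higher gene was the ligand Wnt16 (1.79). The lower genes were the receptor Fzd1 (-2.12), the effector Tcf7l2 (-1.32) and the inhibitors Dkk3 (-3.12) and Sostdc1 (-2.83).

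Ly6c1, Cd55 and Serpinb2 were higher in members than in Krt8-low cells. Ly6c1, a GPI-anchored surface protein, was at 1046 CPM in members against 111 CPM in Krt8-low cells and 40.6 CPM in control, and 290 of 322 members held it. Cd55, which protects cells from complement, was at 445 CPM against 66.7 and 160 CPM, and 268 members held it. Serpinb2, an inhibitor of urokinase, was at 6307 CPM in members, 1695 CPM in Krt8-low cells and 6911 CPM in control keratinocytes, so the members were close to control and the Krt8-low cells lower. It was the 1 gene at least 2-fold higher among 13 measured secreted protease inhibitors, of which 8 were 2-fold lower, with a median log2 ratio of -1.08. Urokinase itself (Plau) was at 70.0 CPM against 9.93 and 10.4 CPM, its receptor Plaur at 58.2 against 14.6 and 10.2 CPM, and Itgb6, the integrin chain that activates latent TGF-β, at 138 against 30.4 and 39.5 CPM. These last 3 were the genes at least 2-fold higher among 12 measured in the list of matrix remodelling and migration, in which none was 2-fold lower.

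Several genes near the top rested on few cells. Prl2c3 and Prl2c2, prolactin-family hormones also called proliferins, were at 832 and 157 CPM in members, 56.5 and 6.46 CPM in Krt8-low cells, and 0 UMIs in control keratinocytes. A Prl2c3 UMI was in 43 members, 1 cell held 1579 of its 3971 UMIs, and without the 10 highest cells it stood at 84.6 CPM. Prl2c2 was in 21 members and stood at 5.43 CPM without its 10 highest cells, where all Krt8-low cells, none left out, gave 6.46 CPM. The sequences of these paralogs are so alike that reads can be split between them. Il24, a cytokine of the interleukin 10 family, was at 136 CPM against 19.9 CPM, and 10 cells held 76.4% of its UMIs. A UMI of Il24 was in 52 members, among them all 15 cells of group 7, described further on, where it stood at 521 CPM. The neutrophil chemokine Cxcl2 was at 72.5 against 10.6 CPM from 7 cells, 1 of which held 194 of 346 UMIs.

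Inflammatory genes were mixed as a list. Of 23 measured, 6 were at least 2-fold higher than in Krt8-low cells and 4 lower, with a median log2 ratio of 0.34. Higher beside Tslp, Il24 and Cxcl2 were Tnf (2.67), Il33 (1.59) and Il1a (1.55), of which Il33 and Il1a code for alarmins, cytokines released from damaged cells. Tnf was found in 80 members and Il33 in 124. Lower were Ccl2 (-5.49), the monocyte chemokine, Cxcl14 (-1.91), a chemokine of resting epidermis, Il1f8 (-1.35) and the iron-binding Lcn2 (-1.16). Ccl2 stood at 3.35 CPM in members, 151 CPM in Krt8-low cells and 67.1 CPM in control keratinocytes, and at 269 CPM in immune barcodes. Against control, 13 of 22 were higher and 3 lower. S100a8 and S100a9, subunits of calprotectin, were at 76.7 and 84.2 CPM in members, at 53.6 and 111 CPM in Krt8-low cells, and at 0.480 and 0.906 CPM in control.

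Genes of the granular layer, which build the cornified envelope, were lower in members than in Krt8-low cells. Of 17 measured, 11 were at least 2-fold lower and none higher, with a median log2 ratio of -2.56. Lor, the main envelope protein, stood at 70.2 CPM against 1199 CPM, and at 114 CPM in control. Flg, the precursor of filaggrin, stood at 19.3 against 282 CPM, and 5.54 CPM in control. Among the members, Flg was at 190 CPM in group 6, described further on, and at 3.21 CPM in the others. How many granular cells the Krt8-low cells held was not counted. Of the late cornified envelope genes, Lce1b had 4 UMIs and Lce1a1 8 UMIs in all members, at 0.838 and 1.68 CPM against 99.4 and 145 CPM in Krt8-low cells. Immune barcodes held them at 6.10 and 9.16 CPM, above the members. These barcodes are therefore only a guide to free RNA, and the reason was not tested. The Lce1 genes are close copies in 1 cluster and can share reads. Against control, 6 of 12 measured granular genes were at least 2-fold higher and 3 lower, with a median of 1.07. Klk7, a protease of cell shedding, was the strongest of the higher ones, at 1967 CPM in members, 1581 CPM in Krt8-low cells and 96.2 CPM in control.

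Hair follicle genes, summed over all members, were lower too. All 10 measured genes of the bulge, the stem cell niche of the follicle, were at least 2-fold lower than in Krt8-low cells, with a median of -2.16. Sox9, a transcription factor of bulge stem cells, stood at 133 CPM in members, 634 CPM in Krt8-low cells and 274 CPM in control, and Postn, a matrix protein, at 36.4, 487 and 244 CPM. The members were not alike in this. Group 8, described further on, held Postn at 465 CPM, and each other group at 23.0 CPM or less. The bulge gene Cd34 was at 472 CPM in group 8 and 4.66 CPM in the other members. How many bulge cells the Krt8-low cells held was not counted. Of 10 measured genes of the upper follicle, 6 were lower and 1 (Krt80) higher, with a median of -1.76. They included Cst6, a cystatin, at 540 CPM against 3652 and 1312 CPM, and Fst, the activin antagonist follistatin, at 24.1 against 533 and 384 CPM. Apoe, a lipid carrier, stood at 471 CPM in members and at 5070 and 5047 CPM in Krt8-low and control cells. Immune barcodes had 3655 CPM of Apoe and 359 CPM of Fst. Cells rich in Krt79 (at least 10 UMIs per 10,000) were 41 of the 322 members and 1726 of the 4024 Krt8-low cells, so the groups differed in makeup, and ratios within strata are given further on.

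Basal genes did not move as 1 block. Col17a1, a collagen of hemidesmosomes, was at 119 CPM in members against 346 CPM in Krt8-low and 1061 CPM in control cells, and Dst, a hemidesmosome plaque protein, at 164 against 340 and 966 CPM. Itga6, the laminin-binding integrin chain, was at 660 CPM against 258 and 530 CPM, the 1 basal gene that was 2-fold higher than in Krt8-low cells. Of 11 measured, 4 were 2-fold lower, and the median was 0.060. Against control, 5 of 11 were 2-fold lower in members and 8 of 11 in Krt8-low cells. Snai2, a transcription factor of basal keratinocytes, was at 4.19 CPM against 29.2 and 99.4 CPM, and Igfbp3, a binding protein of insulin-like growth factors, at 10.9 against 33.7 and 1025 CPM.

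A list of genes known from injured gut and from injured lung, where Krt8 marks transitional cells, was also read. It had 16 measured genes, 6 of them at least 2-fold higher, 2 lower and a median of 0.79. Higher beside Cldn4, Itgb6 and Plaur were Ndrg1 (1.26), Anxa2 (1.21) and Nupr1 (1.08). Lower were Clu (-1.16) and Ccn2 (-2.20), a target gene of YAP. The p53 target list had 2 of 17 genes higher, Pmaip1 (1.76), the apoptosis gene Noxa, and Sesn2 (1.11), none lower, and a median of -0.037. The cell cycle inhibitor Cdkn1a was at 1174 CPM in members, 741 CPM in Krt8-low cells and 980 CPM in control. Among 8 AP-1 genes, Fosl1 alone passed 2-fold, at 632 CPM against 308 CPM, and it was at 788 CPM in control. Epgn was the 1 gene of 8 EGF ligands and receptors that passed it, at 660 CPM against 209 and 176 CPM. Elf3, an ETS factor of simple epithelia, was at 300 CPM against 128 CPM in Krt8-low cells and 6.71 CPM in control.

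Of 27 measured G2/M genes, 9 were at least 2-fold higher than in Krt8-low cells and none was 2-fold lower, with a median log2 ratio of 0.95. The count of 9 was 19 with Krt8 of at least 10 UMIs and 20 per 10,000, 18 with TMM factors, 14 without the sebaceous-like members and 5 in cells of at least 8000 UMIs. Anln, which organises the cleavage furrow, was at 226 against 65.0 CPM, and Cenpf, a centromere protein, at 126 against 41.2 CPM. None of 16 S-phase genes passed 2-fold in either direction, and their median was -0.0098. After thinning to 2000 UMIs, 23.6% of members held 3 or more G2/M UMIs (19.1% to 28.6%). The share was 21.1% in Krt8-low cells, 11.1% in control keratinocytes and 15.7% in immune barcodes. The difference between members and Krt8-low cells was 2.50 percentage points (-2.21 to 7.68), an interval that covers the counting of cells within 1 library and not the spread between animals. Before thinning the shares were 55.6%, 38.0%, 32.3% and 28.1%.

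The members were divided by Leiden clustering of their own profiles into 8 groups of 15 to 77 cells. Clusters get no test, and their leading genes are a description. Group 1 (56 cells) was led by Cxcl2, Prl2c3, Prl2c2, Krt4 and Gjb2, a gap junction gene. Of its 56 cells, 4 held Cxcl2, 9 Prl2c3, 4 Prl2c2 and 15 Krt4, so these leading values came from few cells. The largest, group 2 (77 cells), was led by Gbp2, an interferon-induced GTPase, Pyy, a gut peptide, the endothelin Edn2, Ccnd2 and Mill1. Pyy stood at 1137 CPM there and at 170 CPM in the other members. Group 4 (61 cells) was led by Gdpd2, Skint9, Gm94, Hal and Alox12b, a lipoxygenase of the skin barrier, and held Krt10 at 5767 CPM against 784 CPM in the others. Group 6 (28 cells) was led by Rptn, Flg, Rbp2, Krt1 and Krt6b, and held 17 of the 25 members with a Flg UMI.

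Some groups recalled other epidermal compartments. Group 3 (37 cells) was led by Fa2h, Elovl3, Gm5678, Soat1 and Ces4a. With Soat1, Cidea and Far2 among its 10 leading genes it was sebaceous-like. It was also the 1 group above Krt8-low cells in 2 upper follicle genes, Krt79 (4482 against 2312 CPM) and Cst6 (6805 against 3652 CPM). Its median depth was 3386 UMIs, the lowest of the 8. Group 8 (21 cells) was led by Myoc, Col6a1, Pi15, Kcnk2 and Bgn, with the bulge markers Lgr5 at 170 CPM against 1.33 CPM and Cd34 at 472 against 4.66 CPM. It rests on 2 listed markers among its leading genes and stays unnamed. Groups 5 and 7 were cycling groups of 27 and 15 cells. Group 5 was led by Apod, Ckap2, Kif4, Cenpf and Sgo2a, and group 7, whose median depth was 35803 UMIs, by Cxcl10, Rrm2, Tk1, Bex1 and Mcm7. After thinning, all 42 cells of both groups held 3 or more G2/M UMIs, against 1.64% of group 4 and 43.2% of group 3. The groups were formed on variable genes of these same cells, so these shares are no separate check of the name cycling. The part of free RNA in the share of the shallow group 3 was not tested.

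Doublets, droplets with 2 cells, were scored with Scrublet. Its automatic threshold marked 0% of the library and had not worked, so the 14.7% of barcodes with the highest scores were taken. These held 38 of the 322 members (11.8%) and 676 of the Krt8-low cells (16.8%). By group they held 7 of 21 cells of group 8, 7 of 37 of group 3, and 0 of 15 of group 7.

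Of 42 genes followed in these groups, chosen after their summed values were seen, some stayed on the same side of Krt8-low cells in all 8. Krt18 lay between 134 and 644 CPM and Cldn7 between 33.5 and 248 CPM, above Krt8-low cells in all 8 groups. The same held for Nppb, Ly6c1, Ly6a, Serpinb2, Wnt7b, Wnt3, Cd55, Itgb6, Crip1, Odc1 and Atp1b1. Trp63 lay between 9.76 and 95.9 CPM, below the 179 CPM of Krt8-low cells in all 8, and so did Apoe, Fst and Postn below theirs. For 6 of these genes 1 group had a 95% counting interval that reached the level of Krt8-low cells, so the side of that group is within counting error. They were Nppb in group 4 (115 against 95.2 CPM), Wnt7b in group 6 (26.8 against 17.3 CPM), Wnt3 and Itgb6 in group 3 (57.6 against 37.3 CPM and 49.9 against 30.4 CPM), Atp1b1 in group 7 (129 against 113 CPM) and Postn in group 8 (465 against 487 CPM). Krt4 was at 442 CPM in group 1, where 15 cells held it, and 402 CPM in group 6, where 5 cells did, and at 23.5 CPM or less in the others. Tslp ran from 33.2 CPM in group 8 to 2124 CPM in group 7, with 61.4 CPM (35.1 to 99.8) in group 3 and 49.2 CPM (35.7 to 66.0) in group 4, against 88.9 CPM in Krt8-low cells. Prl2c3 had no UMI in groups 2, 4, 5 and 8. Krt6a ran from 56.4 CPM in group 2 to 7259 CPM in group 6. What the 8 groups shared for Krt18 and Cldn7 was the side of Krt8-low cells, while the levels themselves differed between groups.

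**Figure D3:**
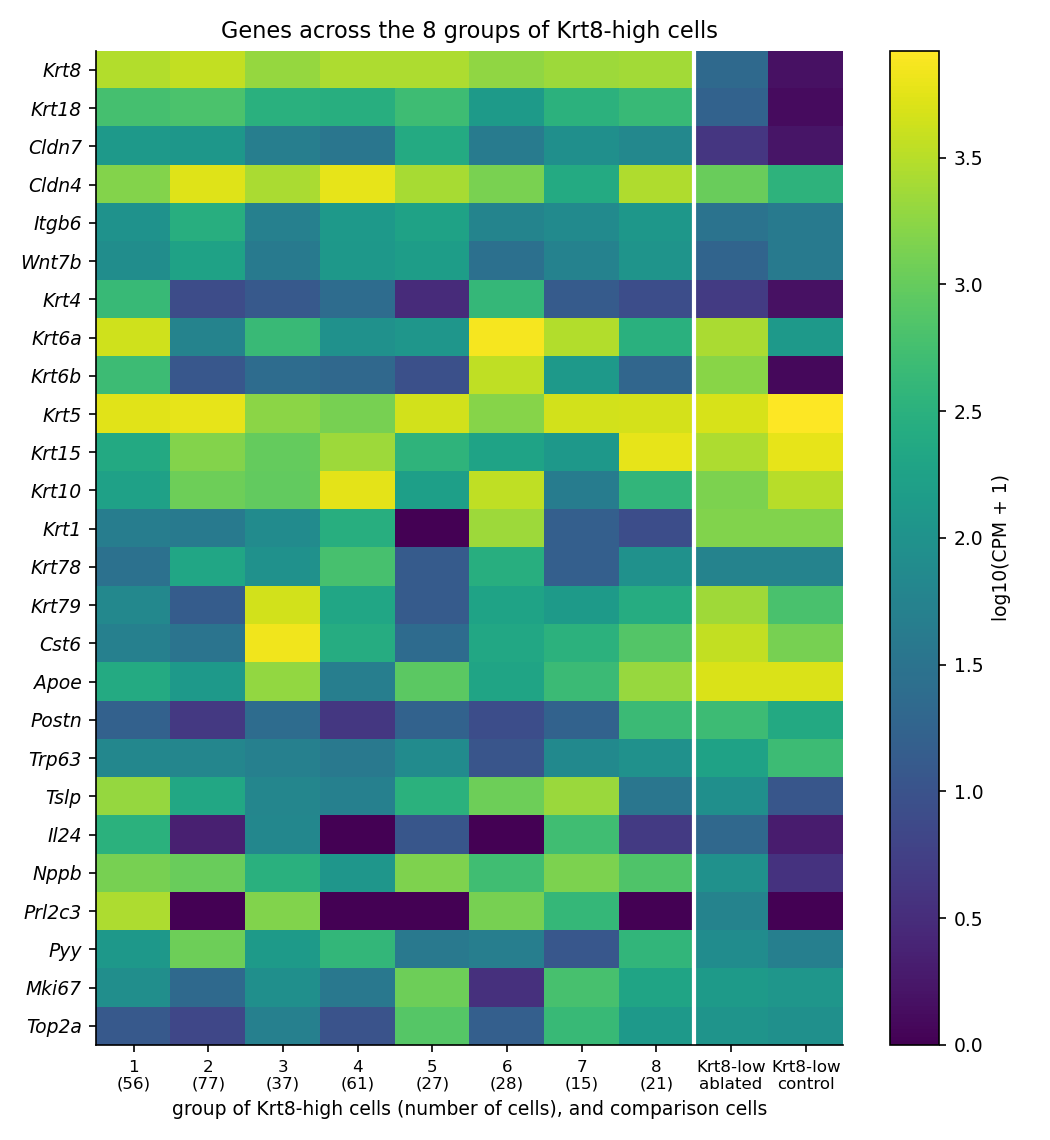
Level of 26 genes (rows, log10 of CPM + 1, colour) in the 8 groups of Krt8-high cells (columns, number of cells in brackets) beside Krt8-low ablated and control keratinocytes. Krt18, Cldn7 and Wnt7b are brighter in all 8 groups than in the Krt8-low ablated column, while Krt4, Krt6a, Krt10, Krt79, Tslp and Prl2c3 differ between groups.

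Cell makeup was held in view by comparing within strata. Among cells with Krt10 of at least 20 per 10,000, 90 members were set against 645 Krt8-low cells. Among cells with Krt79 of at least 10 per 10,000, 41 members were set against 1726, and among cells with neither, 198 against 2006. A cell rich in both keratins counted in the first 2 strata. The Krt79-rich members held 1531 Krt79 UMIs, and the sebaceous-like group 3 held 1167. How many of the 41 were group 3 cells was not counted. The log2 ratio of Krt18 was 4.64, 3.63 and 5.37 in these strata, and that of Cldn7 was 3.78, 4.59 and 5.14. Trp63 was lower in each, by -0.68, -1.04 and -2.02. Apoe was lower too, by -3.24, -1.27 and -3.86, and Fst by -4.34, -2.30 and -4.91.

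The size of the ratio differed between strata for other genes too. Serpinb2 had 0.92, 1.16 and 2.19 in the same order. Cldn4, given above, was under 2-fold in the first and the second stratum. Cst6 had a log2 ratio of -0.53 within Krt79-rich cells, where members stood at 6052 CPM and Krt8-low cells at 8736 CPM, but -3.88 and -2.51 in the other strata. Krt15 had 0.53 in Krt10-rich cells and -1.90 in cells with neither keratin. Depth differed as well, with 14110 UMIs per member against 5289.5 per Krt8-low cell in the last stratum. In cells of at least 8000 UMIs, 238 members and 1193 Krt8-low cells with medians of 15080.5 and 14219 UMIs, the ratios were 5.00 for Krt18, 5.58 for Cldn7, 3.17 for Tslp, -1.40 for Trp63 and -3.42 for Apoe. Each of these had the same direction as over all members.

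Across all ablated keratinocytes the genes were also read by Krt8 level, from 3646 cells without a Krt8 UMI to 63 cells above 40 per 10,000. In steps of none, above 0 to 1, 1 to 3, 3 to 5, 5 to 10, 10 to 20, 20 to 40 and above 40 per 10,000, Krt18 stood at 10.2, 29.7, 58.1, 41.5, 86.8, 212, 438 and 995 CPM. Cldn7 went from 2.44 CPM to 185 CPM, and Cd55 from 58.1 to 729 CPM. Trp63 was at 199 CPM in cells without Krt8 and already at 74.0 CPM in the next step, then between 50.1 and 93.9 CPM. Fst went from 584 CPM to 6.42 CPM and Krt79 from 2415 CPM to 38.5 CPM. Tslp was at 954, 783 and 723 CPM in the last 3 steps. These steps go by level alone, so they also hold the 63 keratinocytes at 10 or more per 10,000 with under 5 Krt8 UMIs, which are not members. Median depth differed between the steps, from 2501.5 UMIs at 3 to 5 per 10,000 to 18580 UMIs at above 0 to 1, since a low value above 0 can be seen only in a deep cell.

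**Figure D4:**
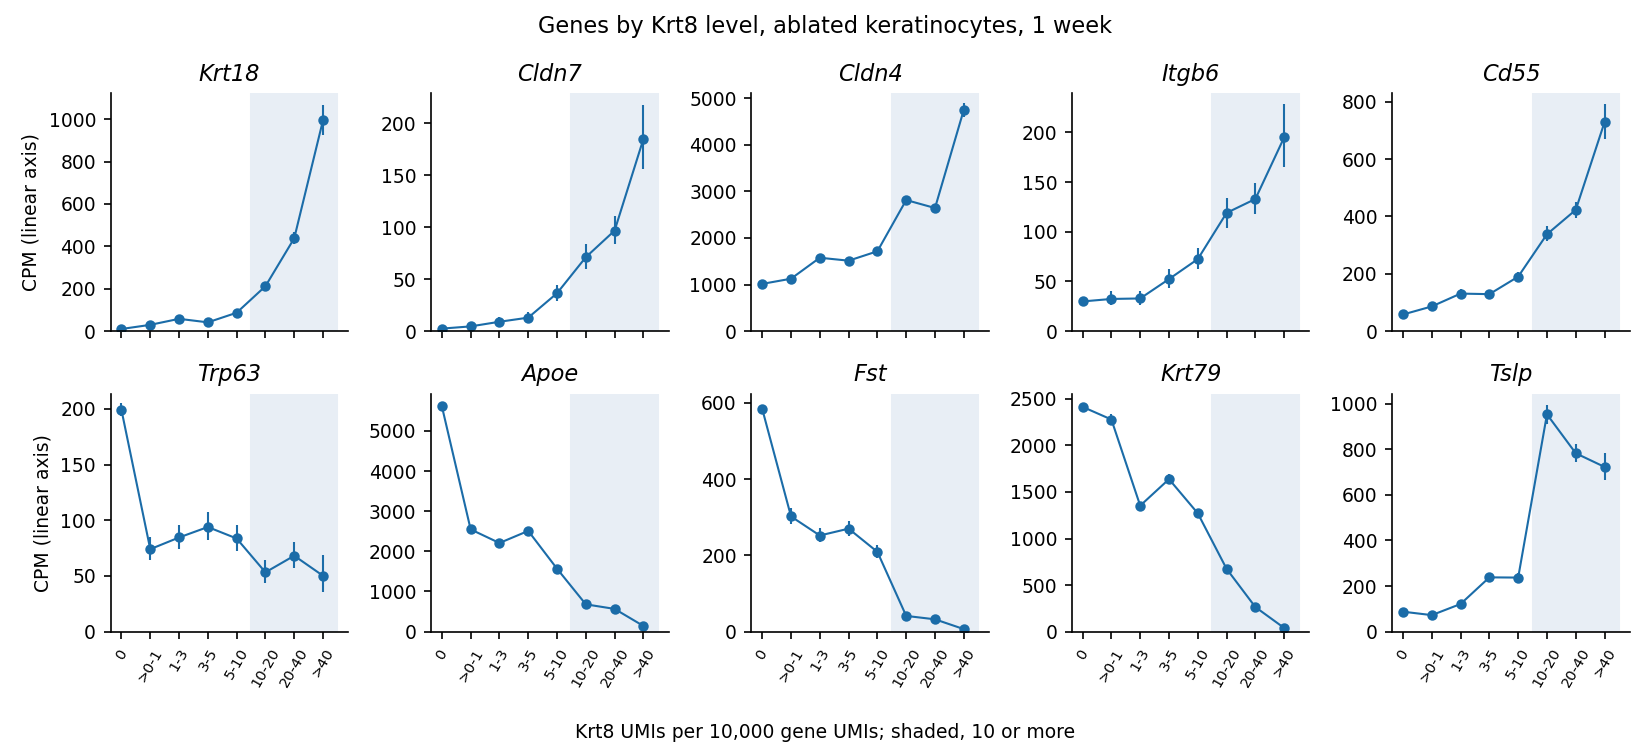
CPM of 10 genes (y axes, linear, each from 0) by Krt8 level of the cell (x axis, UMIs per 10,000 gene UMIs) in ablated keratinocytes at 1 week, with the range of 10 or more shaded and exact 95% Poisson intervals for counting error. Krt18 goes from 10.2 to 995 CPM, while Fst and Krt79 lie at 6.42 and 38.5 CPM in the step above 40.

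The same limits were applied to the 1-day libraries, which the rule did not use. They met 4205 of 26450 passing barcodes of the 1-day ablated library (15.9%, 15.5% to 16.3%) and 2 of 25939 in the 1-day control library. The shares at the 2 times are not compared, since the kit read RNA from its 3′ end at 1 day and from its 5′ end at 1 week, and only ratios within a library are set side by side. At 1 day, 87 of 6901 genes were at least 2-fold higher in Krt8-high than in Krt8-low cells (1.26%) and 210 were lower (3.04%).

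Over 6733 genes measured at both times, 244 were 2-fold higher at 1 week and 80 at 1 day, and 74 of these were shared, which is 30.3% of the 1-week and 92.5% of the 1-day genes. Of 379 lower at 1 week and 204 at 1 day, 181 were shared, 47.8% and 88.7%. No gene was 2-fold higher at 1 time and 2-fold lower at the other. The log2 ratios had a Pearson correlation of 0.83 and a Spearman correlation of 0.75 across these genes, given as a description, since genes are not independent replicates and both sets were chosen on Krt8.

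Single genes differed in how far the 2 times matched. Krt18 had a log2 ratio of 4.78 at 1 week and 3.73 at 1 day, Cldn7 5.00 and 3.33, Tslp 3.28 and 2.07, Ly6c1 3.24 and 2.10, and Trp63 -1.64 and -1.16. Wnt7b and Wnt3 had 2.61 and 2.41 at 1 week and 1.08 and 1.15 at 1 day. Il24 was at 2.78 at 1 week and 0.17 at 1 day, and Prl2c3 at 3.88 and 1.05. For both, 10 members held most of the UMIs at 1 week, though all 15 cells of group 7 held Il24. The granular genes Lor (-4.10 and -0.92), Flg (-3.87 and -0.84) and Lce1b (-6.89 and -1.05) were lower by more at 1 week. Whether the kit, the time or the mice set these sizes cannot be told apart.

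**Figure D5:**
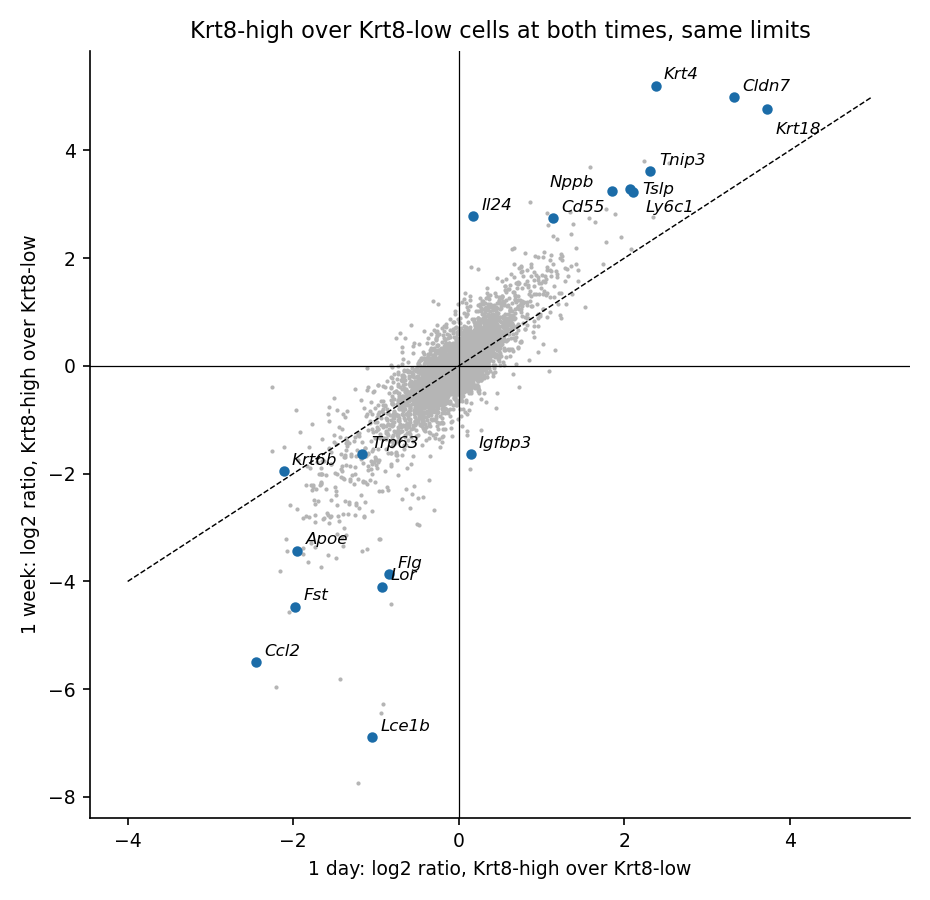
Log2 ratio of Krt8-high over Krt8-low cells at 1 day (x axis) and 1 week (y axis) for 6733 genes, with the dashed line marking equal ratios and named genes in blue. Krt18, Cldn7 and Krt4 lie at the upper right and Ccl2, Fst and Apoe at the lower left, while Il24 is near 0 at 1 day.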

How the data were processed

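Values in the matrices the authors deposited are UMI counts, whole numbers for each gene in each barcode. Per the file headers they come from Cell Ranger 5.0.1. The submitters' processing notes also name the build mm10 and Seurat, without a role. Their barcodes and gene lists carry no further values. Gene UMI totals were 68191870 (1-week ablated), 88903603 (1-week control), 144323031 (1-day ablated) and 179736563 (1-day control). The members, the gene lists and the rules were chosen with earlier results of these data known.

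From these counts, UMIs were summed over cells and divided by the total of all genes (CPM), with exact Poisson intervals, and log2 ratios had exact conditional binomial intervals, all at 95% and for counting error only. A group at 0 UMIs was set to 3 counts over the group. Immune barcodes held 2 or more Ptprc UMIs and at least 2 of the listed immune markers. Cells were thinned with a fixed seed. Members were clustered in scanpy 1.11.5 on 1500 variable genes, 15 components and 15 neighbours at resolution 0.7 (igraph 0.11.9), and leading genes had at least 100 CPM in the group. The scripts were tested on simulated data. Of 32285 gene identifiers, 32158 (99.6%) were found in GENCODE M21 on GRCm38, which gave the coordinates; RefSeq GRCm38.p6 gave promoters.

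Named were Krt8, Krt18, the genes of the rule and Trp63; the 15 highest and 15 lowest genes over Krt8-low cells and the 10 over control, at a mean of at least 50 CPM; in each list the 4 genes of largest ratio and any against the median; 5 leading genes per group; and keratins. Genes named beyond these are list members or were chosen after their values were seen: the latter are the 42 followed across groups and Krt8 levels. Alternatives changed filters, limits, doublets, scaling (edgeR TMM) and cell sets. The 4 antibody features of the 1-day matrices were not used. Results for some genes are not reported here.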

Additional observations from a re-analysis of the deposited data

How the results depend on the processing

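No paired analysis was possible because each group is 1 library. The share of Krt8-high cells was 8.49% with a minimum of 4000 UMIs and 2.86% with Krt8 of 10 or more UMIs and 20 or more per 10,000, where 179 cells remained. Without a filter on low genes beyond a sum of 20 UMIs, 542 genes were higher and 2364 lower than in Krt8-low cells, and 1167 higher and 2364 lower than in control, out of 13470 and 14092, and inflammatory genes lower numbered 9. The 9 higher G2/M genes became 19 with the stricter Krt8 limit, 18 with TMM factors, 14 without the sebaceous-like group and 5 in cells of 8000 or more UMIs, where the basal genes lower became 2. The last 2 settings, and comparison cells without any Krt8 UMI, were chosen after seeing the data. Of the genes 2-fold apart, 35.3% were higher, 46.3% with TMM and 18.7% without the filter. Apart from the fewer or more genes and cells tested, the cause was not tested.

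Krt18, Trp63 and the genes picked as highest or lowest gave 77 values at 2-fold or more over both comparisons. The other named genes were not checked in this way. The picked genes had the largest of these same ratios, so a change of direction was unlikely from the start. Dropping the filter on low genes cannot change a ratio, and TMM factors or other totals shift all ratios of a comparison alike. None of the 77 values changed direction under the 12 alternatives. At most 2 fell under 2-fold in any: Chil1 and Flg (over control) with the stricter Krt8 limit, Igfbp3 (over Krt8-low) and Flg (over control) in deep cells, Sprr2d (over Krt8-low) with TMM or Krt8-free comparison cells, Cpe (over control) with means per cell, and Lce1a1 (over control) after thinning. Depth limits what can be said of Lce1b, Lce1a1, Ccl2 and Cxcl2 in single cells.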
